A study of Mus musculus with 7 samples.

Results

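Gfap, Myoc, Aqp4, Gja1, Gjb6, Slc1a2, Slc1a3, Slc7a10, Etnppl and Aldh1a1 are genes of the astrocyte's skeleton, surface and metabolism. They were picked by symbol, as 10 of the 32285 genes of the deposited matrices, and each symbol marked a single row. Their unique molecular identifiers (UMIs, each standing for a captured RNA molecule) were followed through 46389 nuclei of the posterolateral cortical amygdala (plCoA), of which 9745 were astrocytes. Levels are given as CPM, counts per 1000000 UMIs of the summed nuclei.

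The study divided the plCoA, an olfactory area of the amygdala, into an anterior domain (aplCoA), a posterior domain (pplCoA) and a middle zone. It asked how the cell types of the anterior and posterior domains differ, and the middle zone is not among these samples. Both groups were male C57BL6J mice of 8 weeks, on a wild-type background, all housed singly and deprived of sensory input on the last day. By their labels they differ in the domain dissected. Nuclei were sorted from frozen tissue by their DNA stain. Each domain had 3 replicates, each of them made from pooled tissue of several mice, and aplCoA replicate 1 was sequenced in 2 libraries that were summed here. Because the animals were pooled, the spread between replicates is that between pools, and females were not sampled.

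Astrocytes take up glutamate and potassium, pass small molecules to each other through gap junctions and wrap blood vessels with endfeet. Gfap, an intermediate filament protein, is plentiful in astrocytes of white matter and of the brain surface and scarce in most grey-matter astrocytes, which are known in turn for Slc7a10. Myoc encodes myocilin, a secreted glycoprotein first studied in the eye. Aqp4 is the water channel of the endfeet. Gja1 and Gjb6 are the main connexins of astrocytes, and meningeal cells use both as well. Slc1a2 and Slc1a3 are the glutamate transporters that clear the synapse. Slc7a10 carries small neutral amino acids such as D-serine, Etnppl breaks down phosphoethanolamine, and Aldh1a1 is a retinaldehyde dehydrogenase that makes retinoic acid.

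Total UMIs ranged from 50812605 to 129624583 over the 7 libraries, and pairs of libraries shared 3 to 29 barcodes among the nuclei. Astrocytes were named from 4 clusters by 9 markers that do not include these 10 genes, and the 10 genes were left out of the clustering. All 9 markers were higher in astrocytes than in other nuclei, by up to 287-fold (Acsbg1). Markers of vascular leptomeningeal cells (VLMCs) reached at most 7.49 CPM in astrocytes (Col1a1, against 4.30 in other nuclei) and those of arachnoid barrier cells (ABCs) at most 1.06 CPM. Of 52 markers of other cell types, 9 were higher in astrocytes than in the other nuclei. They were 1 of 4 for newly formed oligodendrocytes (NFOLs; Tcf7l2, 427 CPM), 3 of 6 for mural cells (Pdgfrb at 65.4 CPM, Acta2 and Myh11), 1 of 6 for mature oligodendrocytes (MOLs; Aspa, 52.6 CPM), 1 of 3 for oligodendrocyte precursor cells (OPCs; Vcan, 50.5 CPM), 1 of 5 for VLMCs (Col1a1), and 2 of 3 for ependymal and choroid plexus cells (Foxj1 and Ttr, both under 1 CPM). The median astrocyte held 3339 UMIs, close to the 3182 of microglia and far below the 12200 of glutamatergic neurons. UMIs from free RNA are part of every level.

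On the GRCm38 genome, by the GENCODE M21 annotation, Gfap lies on chromosome 11 (102887336 to 102900912, minus strand), Myoc on chromosome 1 (162639155 to 162649693, plus) and Aldh1a1 on chromosome 19 (20492715 to 20643465, plus). Slc7a10 lies on chromosome 7 (35186385 to 35201114, plus) and Etnppl on chromosome 3 (130617448 to 130637521, plus). Gja1 is on chromosome 10 (56377330 to 56402513, plus), Gjb6 on chromosome 14 (57123303 to 57133611, minus), Slc1a2 on chromosome 2 (102658659 to 102790784, plus) and Slc1a3 on chromosome 15 (8634124 to 8710764, minus). All are protein-coding, and UMIs from introns were counted with those from exons.

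The 250 bases before the start that RefSeq annotates are shown for genes that lay at opposite ends across astrocytes, as described below. Gfap, Myoc and Aldh1a1 stand for one end, and Slc7a10 and Etnppl for the other. For Gfap and Slc1a2 this start, at 102897200 and 102706438, lies 3712 and 47779 bases inside the gene as GENCODE draws it, and for the other 7 with a start it lies 0 to 132 bases before or at the GENCODE boundary. Sequences are from RefSeq on GRCm38.p6, 5′ to 3′ on the gene's strand, and capitals mark a match to TATAAA or to the AP-1 motif TGANTCA.
Gfap (chr11:102897201-102897450): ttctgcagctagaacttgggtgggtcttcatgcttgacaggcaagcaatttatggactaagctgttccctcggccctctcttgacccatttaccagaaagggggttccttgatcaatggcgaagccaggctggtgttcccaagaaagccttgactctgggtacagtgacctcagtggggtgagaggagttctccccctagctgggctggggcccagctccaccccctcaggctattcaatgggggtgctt
Myoc (chr1:162638900-162639149): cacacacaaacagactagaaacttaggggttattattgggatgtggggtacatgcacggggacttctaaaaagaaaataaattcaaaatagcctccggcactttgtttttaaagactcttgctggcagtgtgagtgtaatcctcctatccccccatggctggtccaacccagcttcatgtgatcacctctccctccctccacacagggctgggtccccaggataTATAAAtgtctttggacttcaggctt
Aldh1a1 (chr19:20492333-20492582): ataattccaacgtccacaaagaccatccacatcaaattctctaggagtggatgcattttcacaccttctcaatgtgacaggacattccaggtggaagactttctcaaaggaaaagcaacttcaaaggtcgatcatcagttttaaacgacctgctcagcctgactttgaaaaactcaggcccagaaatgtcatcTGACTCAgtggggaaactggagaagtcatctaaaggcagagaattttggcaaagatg
Slc7a10 (chr7:35186135-35186384): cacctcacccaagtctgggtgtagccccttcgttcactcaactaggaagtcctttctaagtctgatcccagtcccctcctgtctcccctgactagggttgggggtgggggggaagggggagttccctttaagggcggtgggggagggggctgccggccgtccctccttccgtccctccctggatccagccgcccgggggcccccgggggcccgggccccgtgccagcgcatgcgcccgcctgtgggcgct
Etnppl (chr3:130617198-130617447): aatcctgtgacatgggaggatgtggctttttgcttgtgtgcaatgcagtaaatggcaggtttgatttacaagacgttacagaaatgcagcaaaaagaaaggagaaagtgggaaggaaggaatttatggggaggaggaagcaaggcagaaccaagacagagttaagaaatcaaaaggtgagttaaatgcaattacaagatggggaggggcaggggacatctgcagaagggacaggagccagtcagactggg

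A start was found for 9 of the 10 genes, all but Aqp4, and 4 motifs were searched in these 250 bases on both strands. The TATA motif TATAAA lay 26 bases before the start of Myoc and, on the other strand, 161 bases before that of Slc1a3, and 13% of all 27025 promoters held it. TGANTCA lay 57 bases before Aldh1a1 and 19 bases before Gja1, with 6.87% of all promoters holding it. The STAT motif TTCNNNGAA lay 96 bases before Slc1a3 and is found in 7.18% of promoters. The palindromic NFI motif was in none of the 9 and in 0.0407% of all. No match overlapped another. These letters are absent from the window of Gfap, Slc7a10 and Etnppl. The window of Slc7a10 had 69.6% G and C and 14 CG dinucleotides, where the median promoter had 52.0% and 6. Etnppl had 46.0% and 1, Gfap 55.6% and 2, Myoc 46.8% and 2, and Aldh1a1 42.8% and 3.

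The genes were first followed over the 9 classes with at least 20 nuclei in every replicate, to see which of them stay within astrocytes. Gfap, Myoc, Aqp4, Slc7a10 and Etnppl did so for the most part, while both connexins, Slc1a3 and Aldh1a1 were shared with the meninges. Classes come from clusters of the same nuclei, so these levels are a description without a test. Over all nuclei, astrocytes held 96.3% of the UMIs of Etnppl, 93.0% of Gfap, 89.9% of Aqp4, 89.1% of Myoc, 86.7% of Slc7a10, 86.1% of Slc1a2, 81.0% of Aldh1a1, 77.8% of Slc1a3, 69.5% of Gja1 and 53.2% of Gjb6.

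**Figure D1:**
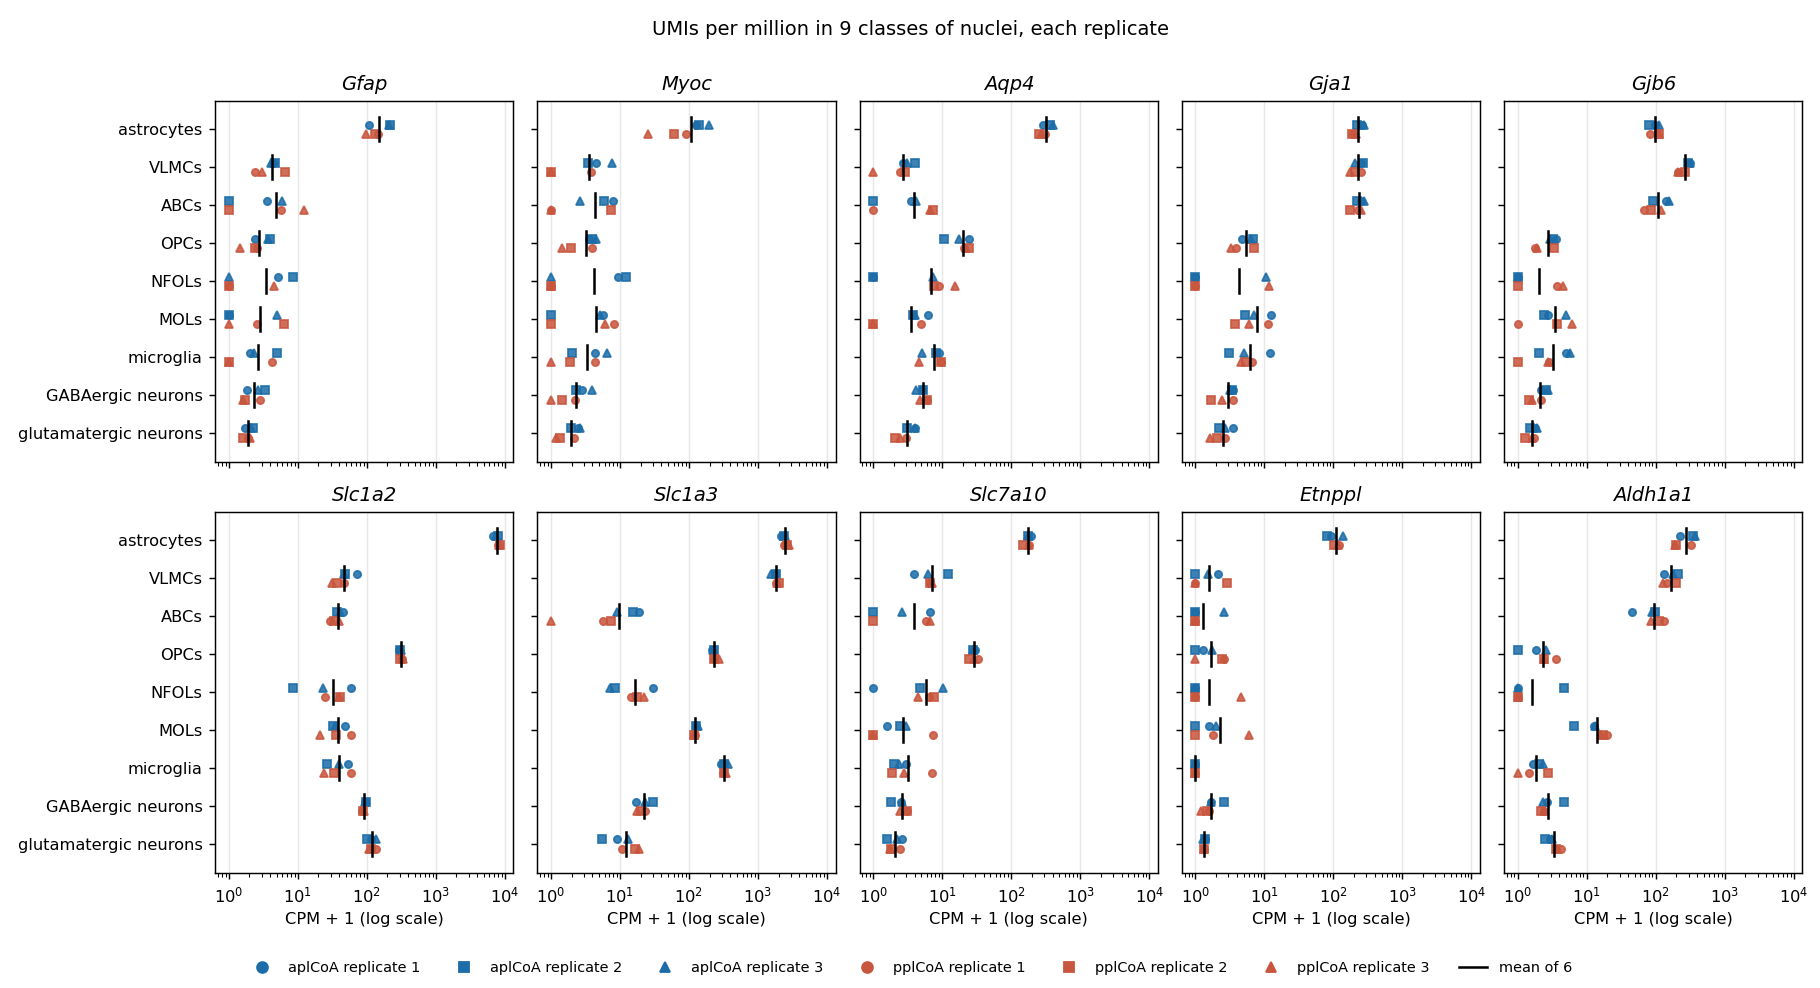
Level of each gene (CPM + 1, log scale) in 9 classes of nuclei. Points are replicates, blue for aplCoA and red for pplCoA, and black bars are means of 6. Gja1 lies near 200 to 300 CPM in astrocytes, VLMCs and ABCs, and Gjb6 is highest in VLMCs, whereas Gfap, Myoc and Etnppl stand out in astrocytes.

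The filament gene Gfap was at 96.2 CPM in the lowest astrocyte replicate, 139 in the median and 219 in the highest, with a mean of 151 ± 51.1 CPM (SD, n = 6). In every other class its highest replicate was at or under 11.2 CPM. Myoc spread most widely, with 24.4, 107 and 192 CPM in the lowest, median and highest replicate and a mean of 105 ± 60.0 CPM. Only a minority of astrocytes carried them: 21.5% had a Gfap UMI and 12.0% a Myoc UMI, where 0.539% and 0.935% of microglia did at nearly the same depth. The same share was 53.7% against 2.23% for Aqp4, whose astrocyte level was 253, 301 and 402 CPM (mean 316 ± 57.2). Outside astrocytes Aqp4 was highest in OPCs, at 19.0 ± 5.35 CPM, below the lowest astrocyte replicate in every pool.

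The connexins were found in the meninges as well as in astrocytes. Gja1 ran from 183 to 273 CPM in astrocytes (median 214), from 175 to 268 in VLMCs (median 228) and from 174 to 281 in ABCs (median 235), and the class ranges overlap. The VLMC range averages 2 unlike clusters, one at 80.0 to 135 CPM of Gja1 and the other at 281 to 375, and neither overlaps astrocytes or ABCs. Gjb6 ran from 78.8 to 110 CPM in astrocytes (median 103) and from 66.5 to 155 in ABCs (median 104). It was higher in VLMCs, at 207, 278 and 315 CPM in the lowest, median and highest replicate, with no overlap with astrocytes. VLMCs held 31.9% of all Gjb6 UMIs in 1858 nuclei. In the other 6 classes the highest replicate of either connexin was at or under 11.6 CPM. A cluster of 162 nuclei led by Fn1, Dpp4 and Prg4, which was given no name, also held both, at 273 CPM for Gja1 and 213 CPM for Gjb6 on average over the replicates with such nuclei.

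The glutamate transporters differed in where else they were found. Slc1a2 was at 6699, 7898 and 8524 CPM in astrocytes (mean 7813 ± 640), with a UMI in 99.7% of them. Its next class was OPCs at 311 ± 14.8 CPM, followed by glutamatergic neurons at 118 ± 15.3 and GABAergic neurons at 91.5 ± 4.92, while in the other 5 classes the mean was between 31.9 and 45.9 CPM. In barcodes with fewer than 100 UMIs, which hold mostly free RNA, Slc1a2 was at 484 to 814 CPM. Slc1a3 was at 2142, 2420 and 2803 CPM in astrocytes and came near this in VLMCs, at 1553, 1833 and 2016, although the replicates did not overlap. It was found at 325 ± 24.4 CPM in microglia, 232 ± 21.3 in OPCs and 123 ± 7.06 in MOLs, and at 8.62 ± 6.58 in ABCs. ABCs and VLMCs thus stood far apart in Slc1a3. Among barcodes of free RNA Slc1a3 was at 160 to 292 CPM.

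The metabolic genes came last. Slc7a10 was at 149, 177 and 195 CPM in astrocytes, followed by OPCs at 27.7 ± 2.66 CPM and VLMCs at 6.06 ± 2.66, with a mean at or under 4.80 CPM in the other 6 classes. The mean of glutamatergic neurons hides a cluster of 162 nuclei led by Ndnf and Trp73, with 71.5 ± 35.4 CPM of Slc7a10 (35.0 to 129 over replicates, 48 UMIs in all). Etnppl was at 79.7, 109 and 138 CPM in astrocytes and no other class had a replicate above 5.04 CPM. Microglia had 0 Etnppl UMIs in 2782 nuclei, which allows a share of nuclei with a UMI of up to 0.108%. Aldh1a1 was at 189, 277 and 365 CPM in astrocytes, at 126, 162 and 212 in VLMCs, and at 44.8, 92.5 and 133 in ABCs. The same 2 VLMC clusters were unlike in it too: the cluster of 1125 nuclei led by Bmp6 and Dcdc2a had 314 CPM, and that of 733 nuclei led by Ptgds had 5.25 CPM.

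Within astrocytes the question was whether all nuclei use the 10 genes alike. Across the 4 astrocyte clusters, which were made without the 10 genes, they did not. A cluster of 1093 nuclei led by Adamts9 and A2m held 1083 ± 299 CPM of Gfap and 1175 ± 106 of Myoc (SD, n = 6), with 1197 CPM of Aqp4 and 801 of Aldh1a1. The same cluster had 5.56 CPM of Slc7a10 and 14.9 of Etnppl, the latter 6.27 without pplCoA replicate 3, which had 22 nuclei in it. The 2 largest clusters were at the other end. That of 3711 nuclei led by Slco1c1 and Gm6145 had 49.1 CPM of Gfap, 3.40 of Myoc, 210 of Aqp4, 169 of Aldh1a1, 207 of Slc7a10 and 124 of Etnppl. That of 3288 nuclei led by C030005K06Rik and Phkg1 had 36.7, 4.77, 172, 101, 220 and 155 CPM of the same genes. A cluster of 1653 nuclei led by 8030451A03Rik and Tnc lay between these and the first for all of them, at 174 CPM of Gfap, 62.5 of Myoc, 455 of Aqp4, 607 of Aldh1a1, 93.3 of Slc7a10 and 41.7 of Etnppl. Gjb6 (72.9 CPM) and Slc1a3 (2342) lay between as well. Gja1 did not, being lowest in this cluster, at 170 CPM against 271 in the first and 233 and 221 in the 2 largest. Slc1a2, at 7836 CPM, fell between the 2 largest clusters (8702 and 7334).

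To follow the same relation by UMI counts, each of the 9084 astrocytes with at least 2000 UMIs was thinned to 2000 UMIs, and 661 shallower ones were left out. Astrocytes were then binned by their summed Gfap and Myoc UMIs. The bins are ranges and not cell types. Their means cannot tell a graded change in each nucleus from a changing mix of unlike nuclei. They held 7412 nuclei with 0 UMIs, 770 with 1, 229 with 2 and 673 with 3 or more.

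Aqp4 climbed with the bins, from 225 ± 29.9 CPM at 0 UMIs to 438 ± 67.5, 761 ± 259 and 1128 ± 112 (SD, n = 6). Aldh1a1 climbed from 210 ± 57.5 to 338 ± 114, 577 ± 170 and 834 ± 154 CPM, and did so at each step in 6 of 6 replicates. Slc7a10 went the other way, from 193 ± 21.3 to 159 ± 27.3, 73.3 ± 41.6 and 9.51 ± 10.9 CPM, and Etnppl from 121 ± 27.1 to 98.7 ± 29.9, 23.9 ± 19.1 and 10.2 ± 10.2. In the top bin Slc7a10 was at or under 29.4 CPM in every replicate. The transporters were lower but not lost: Slc1a2 passed from 7985 ± 586 to 3804 ± 852 CPM and Slc1a3 from 2611 ± 232 to 944 ± 210. Gjb6 stayed at 102 and 103 CPM over the lowest bins and was at 41.6 ± 29.5 in the top one. Gja1 changed less, with 221 ± 37.3, 195 ± 23.8, 222 ± 84.7 and 259 ± 80.3 CPM, and it was higher in the top bin than at 0 UMIs in 5 of 6 replicates. pplCoA replicate 3 had only 17 nuclei in each of the upper 2 bins, and without it the top bin was at 1142 CPM for Aqp4, 877 for Aldh1a1, 5.53 for Slc7a10, 6.37 for Etnppl and 32.3 for Gjb6 (n = 5).

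**Figure D2:**
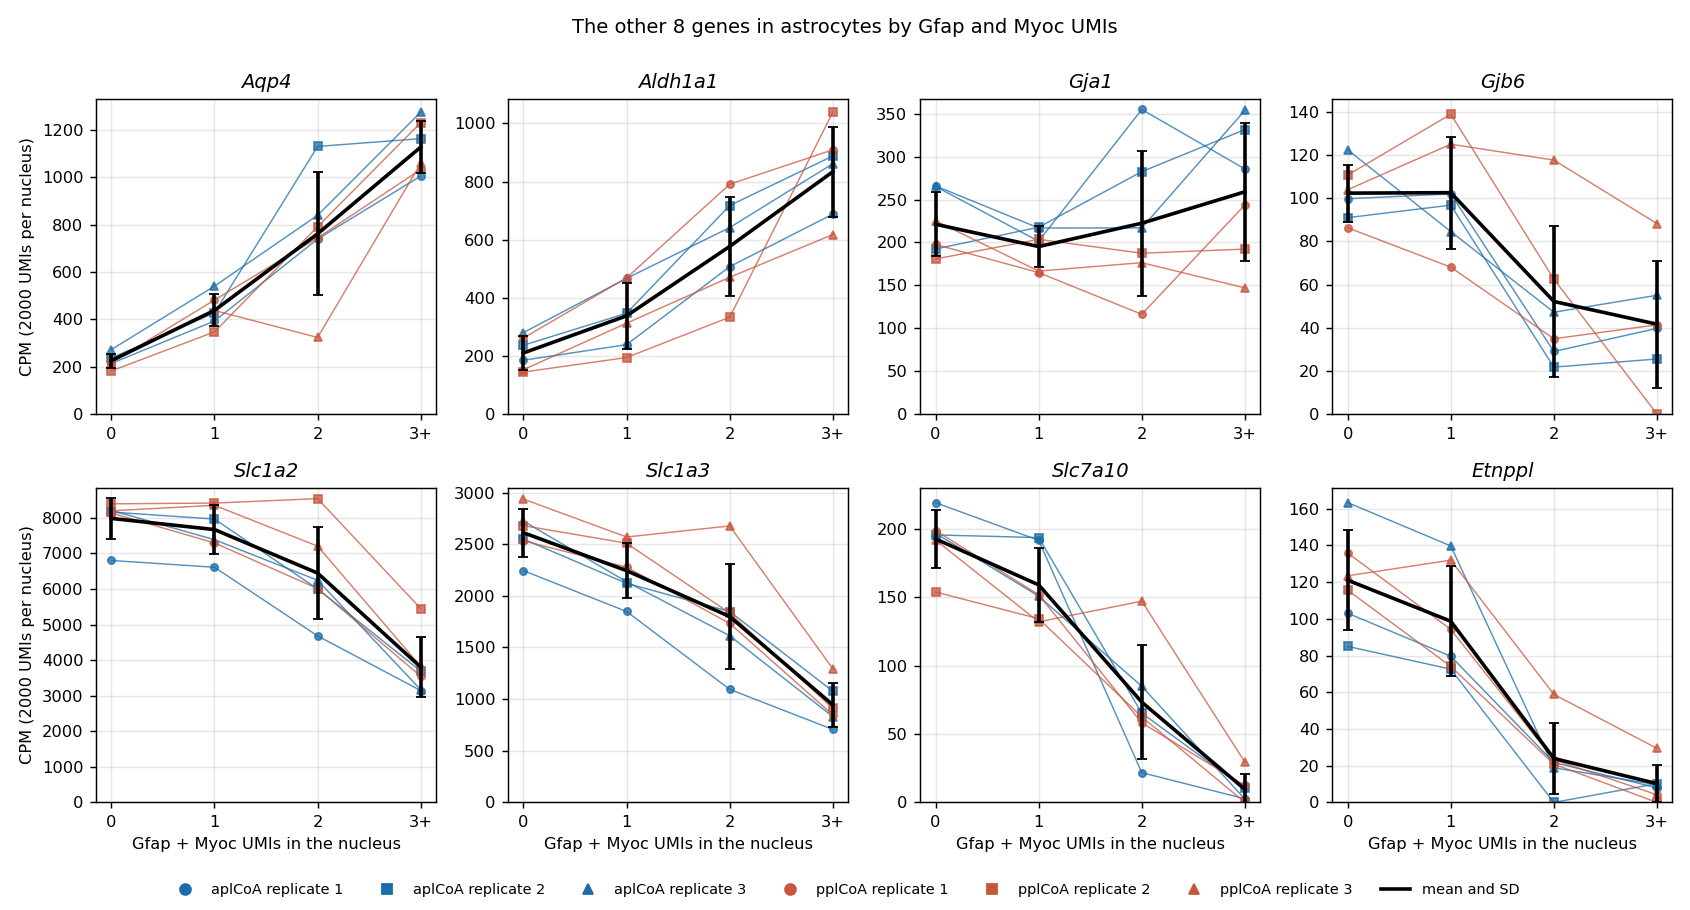
CPM of the other 8 genes (y axis, from 0) in astrocytes by their summed Gfap and Myoc UMIs at 2000 UMIs per nucleus (x axis). Thin lines are replicates, blue for aplCoA and red for pplCoA, and the black line gives the mean and SD of 6. Aqp4 and Aldh1a1 rise to 1128 and 834 CPM, Slc7a10 and Etnppl run down to about 10 CPM, and Gja1 is at 181 to 266 CPM in the lowest bin and 147 to 354 in the top one.

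Binned instead by Slc7a10 and Etnppl UMIs, the picture was not a plain mirror. Gfap was at 224 ± 91.0 CPM in the 5574 nuclei with 0 UMIs and at 54.7 ± 15.8, 38.8 ± 10.2 and 41.9 ± 16.5 CPM in those with 1 (2330 nuclei), 2 (840) and 3 or more (340). Myoc was at 181 ± 104, then 14.7 ± 17.0, 4.85 ± 6.89 and 3.91 ± 4.91 CPM. The last 3 means rest on few UMIs and were 7.85 without aplCoA replicate 2, and 2.47 and 2.25 without aplCoA replicate 3. Thus a single UMI of the Slc7a10 pair already marked nuclei with little Gfap or Myoc. Aldh1a1 was at 348 ± 109, 162 ± 42.3, 164 ± 52.8 and 79.9 ± 48.1 CPM and Aqp4 at 394 ± 94.5, 219 ± 28.3, 190 ± 51.9 and 146 ± 42.4. Slc1a2 and Slc1a3 moved little along this scale, from 7373 ± 699 to 7607 ± 715 CPM and from 2322 ± 247 to 2726 ± 401 CPM. Nuclei holding UMIs of both pairs did occur. Of astrocytes with a Gfap or Myoc UMI, 16.3 to 34.0% also had one of Slc7a10 or Etnppl, against 37.9 to 45.6% of those with none, and the ranges over replicates did not overlap.

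The 2 sides of this split, nuclei with at least 1 Gfap or Myoc UMI and nuclei with none, were compared over the 6 replicates by edgeR's quasi-likelihood test with each replicate as a block, since both sides came from the same pool. Gfap and Myoc define the split and were not tested. Of the other 8 genes 7 differed: Aqp4 and Aldh1a1 rose in nuclei with a Gfap or Myoc UMI, and Slc7a10, Etnppl, Slc1a3, Gjb6 and Slc1a2 fell. Among all 5222 genes tested, 15.4% were called higher and 14.8% lower, 30.1% in all. The 8 genes were chosen with earlier results of these data known, so their count and directions are no independent evidence.

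Aqp4 was at 519, 699 and 966 CPM (lowest, median and highest replicate) in nuclei with a Gfap or Myoc UMI and at 182, 224 and 272 in nuclei without, and the sides did not overlap. Its rise was 3.16-fold (log2 1.66 ± 0.08 SE, n = 6, edgeR adjusted p = 1.87e-13). Aldh1a1 was at 387, 561 and 697 against 145, 211 and 280 CPM, again without overlap, a rise of 2.52-fold (log2 1.33 ± 0.07 SE, edgeR adjusted p = 6.88e-13). Sides that do not overlap were seen for 9.27% of the genes tested.

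Slc7a10 was at 64.1, 90.6 and 118 CPM in nuclei with a Gfap or Myoc UMI and at 154, 196 and 219 in those without, and no replicate of one side reached the other. It fell by 1.24 on the log2 scale (SE 0.11, n = 6, edgeR adjusted p = 5.93e-09). Etnppl fell by 1.31 (SE 0.13, edgeR adjusted p = 3.77e-08), from a median of 120 CPM to 52.3 CPM, lower in 6 of 6 replicates although the sides overlapped through pplCoA replicate 3, at 104 CPM. Slc1a3 fell by 0.68 (SE 0.08, edgeR adjusted p = 4.58e-07), from a median of 2615 to 1626 CPM, in 6 of 6 replicates. Slc1a2 fell by 0.46 (SE 0.07, edgeR adjusted p = 2.13e-05), from 8182 to 5647 CPM, also in 6 of 6.

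The 2 connexins behaved differently from each other. Gjb6 fell by 0.62 (SE 0.12, edgeR adjusted p = 0.000363), with medians of 102 and 64.7 CPM, and was lower in 5 of 6 replicates. Gja1 was at 165, 229 and 289 CPM with and 181, 211 and 266 CPM without a Gfap or Myoc UMI, higher in 3 of 6 replicates. Its log2 difference was 0.02 with a 95% interval from -0.16 to 0.20 (edgeR adjusted p = 0.930), and it turned negative under 5 of the alternatives tried.

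**Figure D3:**
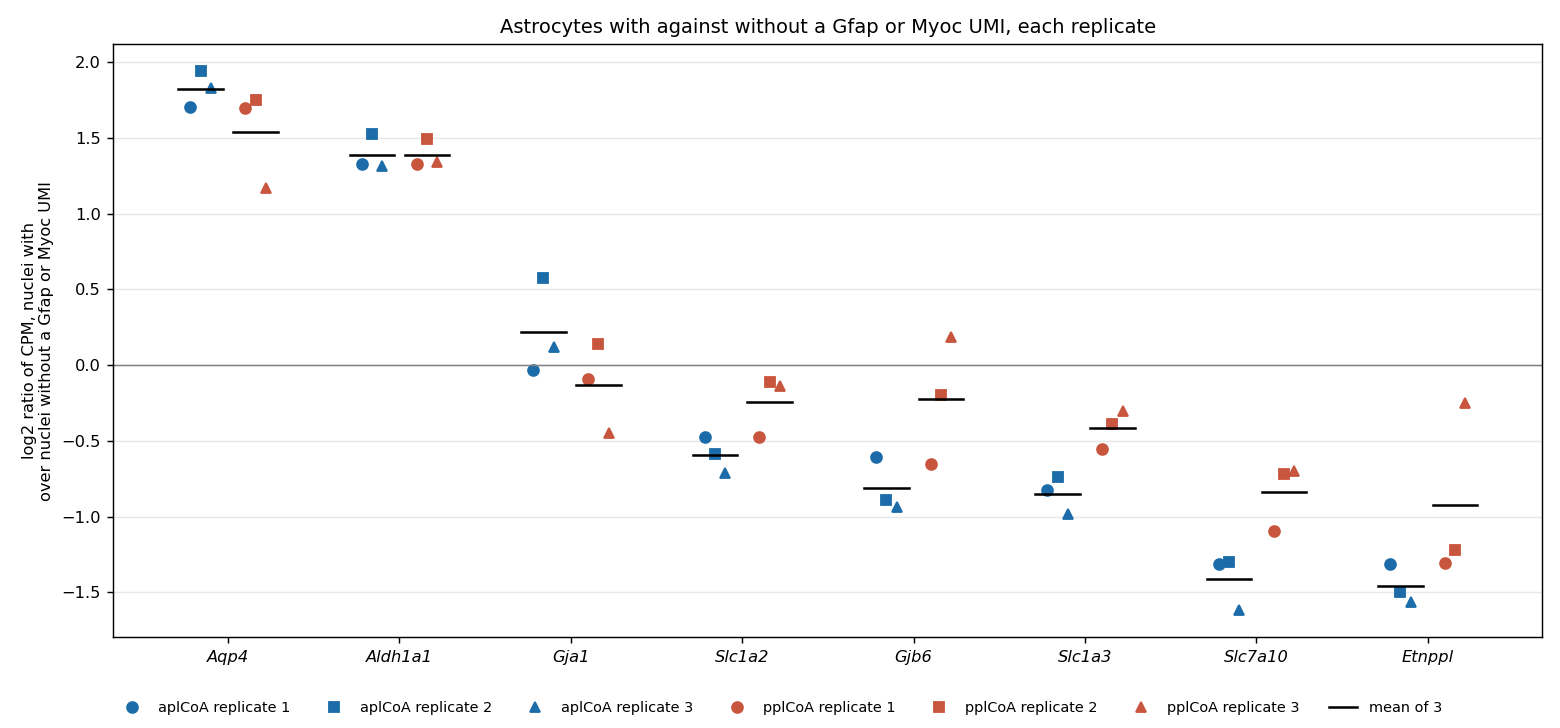
Log2 ratio of CPM in astrocytes with over astrocytes without a Gfap or Myoc UMI (y axis) for each of 8 genes (x axis). Points are replicates, blue for aplCoA and red for pplCoA, and black bars are means of 3. Aqp4 and Aldh1a1 lie above 0 and Slc1a2, Slc1a3, Slc7a10 and Etnppl below 0 in all 6 replicates, and the red points of Slc1a2 and Slc1a3 lie closer to 0 on average, with nearly the same ratio of Slc1a2 in replicate 1 of both domains (-0.48 and -0.47).

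Other measures moved with the split. Median UMIs before thinning were lower in nuclei with a Gfap or Myoc UMI in 5 of 6 replicates (2870 to 3275 against 3127 to 3811). The median ribosomal share of UMIs was higher with such a UMI in 5 of 6 (0.246 to 0.518% against 0.240 to 0.461%), the median mitochondrial share was higher in 5 of 6 with the sixth at 0 on both sides (0 to 0.0455% against 0 to 0.0428%), and the mean doublet score was lower in 6 of 6 (0.0149 to 0.0206 against 0.0202 to 0.0282). Summed markers of microglia were at 107 to 172 CPM in nuclei with and 86.5 to 136 in nuclei without, higher in 5 of 6 replicates. Those of VLMCs were at 15.5 to 38.3 against 11.2 to 23.3 CPM, also higher in 5 of 6. Without Col1a1 the VLMC sum was higher in 6 of 6 (9.43 to 21.9 against 6.28 to 14.4 CPM). The sum was higher in 5 of 6 for GABAergic neurons, 4 of 6 for glutamatergic neurons, 4 of 6 for endothelia and 3 of 6 for macrophages. In several lists a single gene made up most of the sum. The mural sum was lower in 6 of 6 replicates (35.5 to 57.7 against 72.5 to 83.0 CPM), but the other 5 mural markers without Pdgfrb were at 0 to 9.86 against 2.26 to 6.44. The NFOL sum was lower in 6 of 6 too (328 to 491 against 445 to 506 CPM), and at 2.73 to 26.3 against 26.3 to 38.4 without Tcf7l2. The MOL sum was higher in 5 of 6 (46.8 to 120 against 54.1 to 78.4 CPM), and without Aspa it was at 4.72 to 38.0 against 6.97 to 31.7. OPC markers were at 37.7 to 76.0 against 52.6 to 73.2 CPM. ABC markers were at 0 to 3.77 against 0.752 to 2.86 CPM and ependymal and choroid plexus markers at 0 to 5.03 against 0.359 to 1.85. The sum of the 9 astrocyte markers was 5297 to 7382 against 5831 to 6906 CPM. It was lower in nuclei with a Gfap or Myoc UMI in every replicate but pplCoA replicate 3 (7382 against 6720 CPM). Without astrocytes that held a UMI of any VLMC or ABC marker, the same 7 genes passed the test. The share of all genes called in that fit is not given here, so this count is not read as a result about the genes. The part of the other cell types and of nucleus quality in the split was not tested.

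Genes that work beside these 10 were read from the same fit, in lists chosen by function, each count covering the genes that are not among the 10. Of all genes tested in the split, 14.8% fell and 15.4% rose. Of 12 genes for glutamate, GABA and potassium handling, all tested, 8 fell and 0 rose. Among them were Slc1a4, a carrier of neutral amino acids (log2 -0.78), the GABA transporter Slc6a11 (-0.73), the potassium channels Kcnj16 (-0.54) and Kcnj10 (-0.35), the mitochondrial glutamate carrier Slc25a18 (-0.31) and glutamine synthetase Glul (-0.26). The list's median was -0.32, where that of all genes tested was -0.01. Slc4a4 (-0.10), Glud1 (-0.11), Atp1b2 (-0.09) and Slc38a3 (0.08) did not pass.

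Of 8 genes of the endfoot and membrane scaffold, only Utrn rose (log2 0.23) and only Cldn10 fell (-0.61), where 30.1% of all genes tested were called. The dystrophin-complex genes Dtna (0.05), Dag1 (0.23) and Dmd (-0.03) did not pass, nor did Hepacam (-0.04) and Mlc1 (0.06), and the list's median was 0.01. Thus Aqp4 was 3.16-fold higher while Dtna, Dag1, Dmd and Utrn, of the dystrophin complex, differed by at most 0.23 on the log2 scale. Of 5 other connexins only Gjc3, known from oligodendrocytes, reached the 10% of nuclei needed, and it did so only among nuclei with a Gfap or Myoc UMI. Its levels, 59.6 ± 29.5 CPM with and 2.27 ± 1.43 CPM without (SD, n = 6), are therefore a description.

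Of 8 genes linked to fibrous or reactive astrocytes, 2 reached 10% of nuclei on both sides, and both rose: Id3, a transcription regulator (log2 1.57), and Fxyd1, a regulator of the sodium pump (1.04). Another 3 reached it only on the side with a Gfap or Myoc UMI and are described without a test. Cd44, a hyaluronan receptor, was at 73.2 CPM with and 8.47 without, the complement gene C4b at 52.0 and 7.87, and the transcription regulator Id1 at 131 and 15.5. Of 7 genes linked to grey-matter astrocytes, 6 were tested, each above 10% of nuclei on both sides, and all 6 fell: Mfge8 (-1.26), the metabotropic glutamate receptor gene Grm3 (-0.85), the glypican gene Gpc5 (-0.75), Slc6a11 (-0.73), the transcription factor Lhx2 (-0.51) and the protease gene Htra1 (-0.41). Among all genes tested in the split, 15.4% were called higher and 14.8% lower. The lists were chosen with earlier results of these data known, so their directions are no independent evidence. Of the aldehyde dehydrogenase and retinoid list, 3 of 7 were tested and did not move together: Aldh1l1 rose by 0.28, Aldh2 fell by 0.59, and Aldh6a1 stood at 0.13 and did not pass. Of the 4 other members of the SLC1 family only Slc1a4 was tested, and it fell as given above.

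Among all genes past the threshold with the same sign in all replicates, those with the largest rises included Myocos, Slc38a1, Siah3 and Tshr. All 4 reached 10% of nuclei only on the side with a Gfap or Myoc UMI, so their levels are a description. Slc38a1, a glutamine transporter, was at 506 ± 279 CPM with and 13.4 ± 7.35 CPM without, and Tshr, the thyrotropin receptor, at 74.1 ± 20.8 and 2.45 ± 0.700 CPM. Myocos overlaps Myoc in the annotation, so its UMIs and those of the gene that made the split cannot be told apart with certainty. Of the 5 largest falls, Fzd2, Rpe65, Rgs3 and Sparc reached 10% of nuclei only on the side without. The GABA-B receptor gene Gabbr2 reached it on both sides and fell by 1.34 on the log2 scale, from 360 ± 56.9 CPM without to 146 ± 37.5 CPM with.

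The next comparison asked whether astrocytes of the 2 domains differ in the 10 genes. All 10 were tested among 5023 genes by edgeR's quasi-likelihood test on the 6 replicates, and 0 passed an adjusted p of 0.05, beside 0.538% of all genes tested. At an unadjusted p under 0.05 there were 3 (Myoc, Gja1 and Aqp4, all higher in aplCoA), beside 15.6% of all genes tested. DESeq2 called 0, beside 3.86% of all genes, and edgeR's likelihood ratio test 1 (Myoc), beside 4.66%. For 3 of the 10, aplCoA and pplCoA values were fully apart (Myoc, Gja1 and Slc1a2), beside 20.7% of all genes tested.

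**Figure D4:**
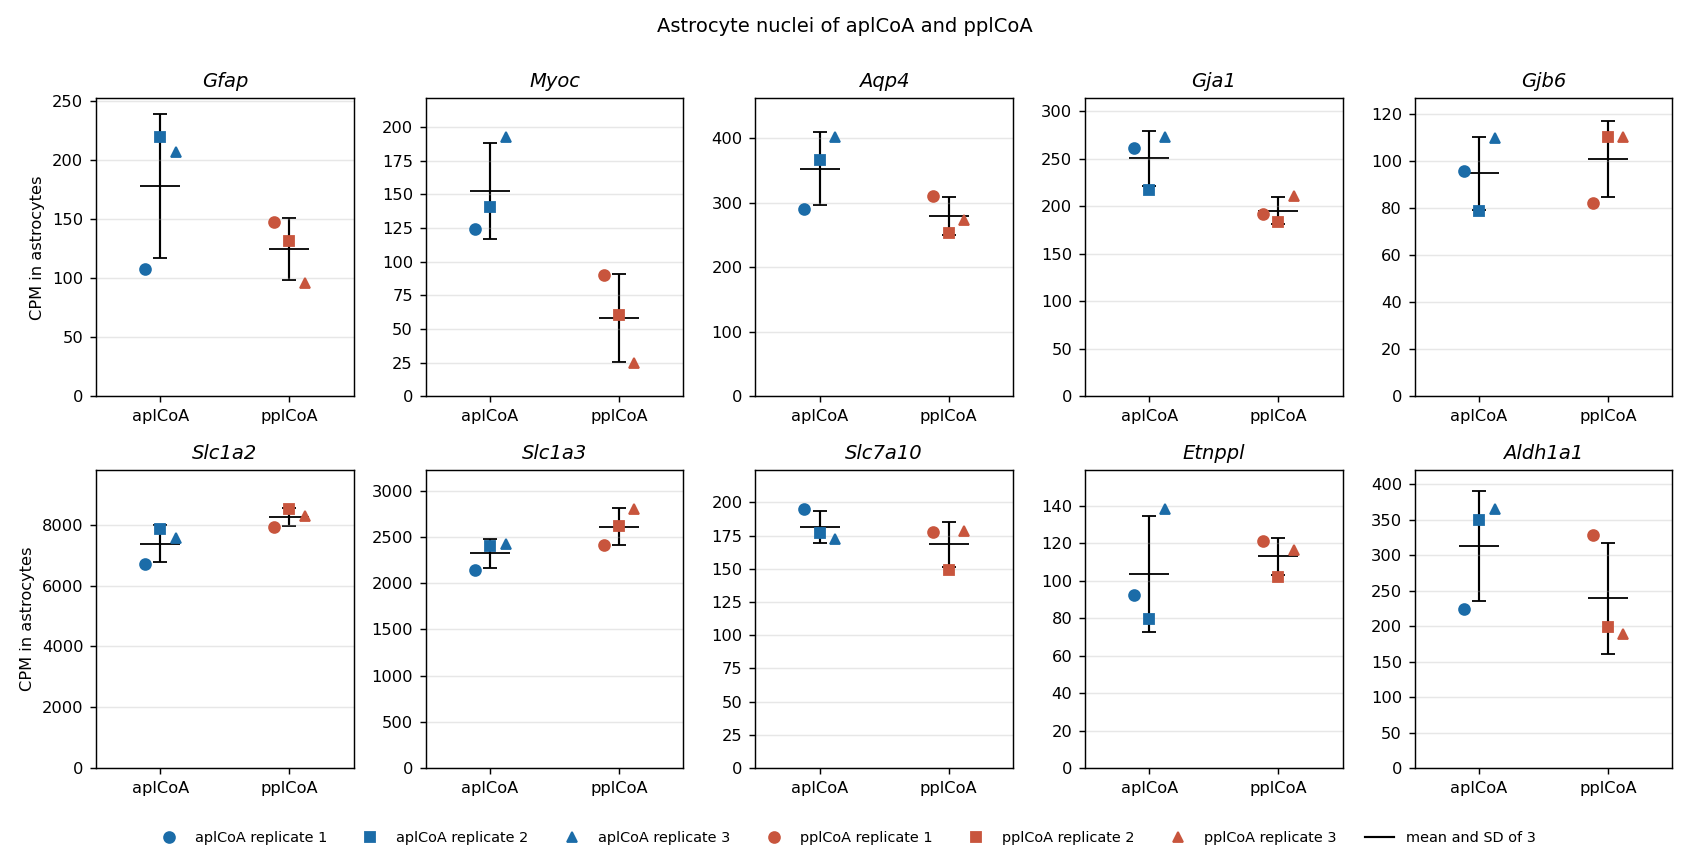
CPM of each gene in astrocytes (y axis, from 0) for aplCoA (blue) and pplCoA (red). Points are replicates and black bars give the mean and SD of 3. Myoc shows the widest gap, 152 against 58.2 CPM on average, and 0 of 10 genes passed the test.

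Myoc had the largest difference. It was at 124, 141 and 192 CPM in aplCoA replicates 1 to 3 and at 89.9, 60.3 and 24.4 CPM in those of pplCoA. Every aplCoA replicate was above every pplCoA replicate. The log2 difference was 1.31 ± 0.34 (SE), which is 2.49-fold, with an edgeR adjusted p of 0.116. Myoc reached the 10% of nuclei needed for the test only in aplCoA (14.7%, against 8.07% in pplCoA), so its difference is a description. It crossed the threshold when pplCoA replicate 1, the highest of its domain, was left out (log2 1.79), which removes the pool nearest to aplCoA, and 5.04% of all genes were called in that fit. Barcodes with fewer than 100 UMIs held Myoc at 17.2 to 75.8 CPM in the aplCoA libraries and 16.0 to 25.4 in those of pplCoA. Summed VLMC markers in astrocytes were at 20.0, 18.6 and 28.0 CPM in aplCoA and 17.3, 18.0 and 12.7 in pplCoA, and VLMCs themselves held Myoc at 0 to 6.71 CPM. The median mitochondrial share of astrocyte UMIs was 0.0333 to 0.0442% in aplCoA and 0 to 0.0249% in pplCoA. The cluster led by Adamts9 and A2m, which is rich in Myoc, was 11.6, 14.5 and 18.1% of astrocytes in aplCoA and 9.17, 5.27 and 2.47% in pplCoA, without overlap. That led by 8030451A03Rik and Tnc, with 62.5 CPM of Myoc, went the other way, also without overlap. It was 12.0, 16.1 and 15.6% of astrocytes in aplCoA and 22.7, 20.6 and 19.6% in pplCoA. The shares of the remaining clusters overlapped between the domains. Within the cluster led by Adamts9 and A2m, Myoc was at 1319, 1072 and 1264 CPM in aplCoA and 1053, 1199 and 1139 in pplCoA, which overlap. The part of these in the difference was not tested.

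The filament gene Gfap, at 108, 219 and 207 CPM in aplCoA and 147, 131 and 96.2 in pplCoA, overlapped between the domains (log2 0.47 ± 0.25 SE, edgeR adjusted p = 0.419). Gja1 was at 261, 217 and 273 against 192, 183 and 211 CPM and did not overlap, with a log2 difference of 0.34 ± 0.11 (edgeR adjusted p = 0.168). Aqp4 was at 290, 367 and 402 against 311, 253 and 274 CPM (log2 0.31 ± 0.12, edgeR adjusted p = 0.267). Slc1a2 was at 6699, 7867 and 7569 CPM in aplCoA and slightly above this in pplCoA, at 7929, 8524 and 8290 (log2 -0.18 ± 0.09, edgeR adjusted p = 0.358). The remaining genes differed by at most 0.35 on the log2 scale: Aldh1a1 0.35, Slc7a10 0.09, Gjb6 -0.09, Etnppl -0.14 and Slc1a3 -0.19. Across the function lists 0 of 31 tested genes passed edgeR's test between domains, and 6 had an unadjusted p under 0.05, beside the 15.6% of all genes given above. Higher in aplCoA were Id1 (log2 1.23), Fxyd1 (0.81), Id3 (0.70) and Atp1b2 (0.29), and lower were Grm3 (-0.33) and Slc25a18 (-0.28). Id1, Fxyd1 and Id3 are the 3 tested genes of the fibrous or reactive list (edgeR adjusted p = 0.0647, 0.159 and 0.0647). Whether Id1 and Fxyd1 reached the share of nuclei needed for the test in both domains is not given here. Their differences are therefore a description.

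The share of astrocytes with a Gfap or Myoc UMI at 2000 UMIs was 16.8, 21.6 and 22.2% in aplCoA and 18.6, 17.4 and 12.9% in pplCoA, which overlap. The means, 20.2 and 16.3%, differed by 3.92 points (exact permutation test, two-sided, n = 3 per domain, p = 0.3, where 0.1 is the smallest p the design allows). Split by Myoc alone the shares were 9.34, 12.5 and 13.9% against 7.81, 5.18 and 2.43% and did not overlap (exact permutation test, p = 0.1). By Gfap alone they were 13.4, 19.1 and 18.7% against 15.6, 15.4 and 12.0% (exact permutation test, p = 0.3).

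Outside astrocytes, the genes with enough nuclei gave 21 pairs of gene and class, and 0 passed edgeR's quasi-likelihood test between domains. The test called 20.9% of all genes in glutamatergic neurons, 10.3% in GABAergic neurons, 6.44% in OPCs, 2.19% in MOLs, 0.118% in ABCs, 0.0174% in VLMCs, and 0% in microglia and NFOLs. At an unadjusted p under 0.05 there were 4 pairs, 1 in ABCs, 1 in glutamatergic neurons and 2 in VLMCs, where 7.46%, 33.9% and 8.10% of all genes were. DESeq2 called 0 pairs and the likelihood ratio test 1, Slc1a3 in glutamatergic neurons, where these tests called 25.1% and 24.7% of all genes. The replicates did not overlap for 4 pairs: Gjb6 and Slc1a2 in VLMCs, Slc1a2 in GABAergic neurons (log2 0.07) and Slc1a3 in MOLs (0.09), beside 13.3% of the genes tested in VLMCs, 28.4% in GABAergic neurons and 17.3% in MOLs. VLMC Gjb6 was at 315, 289 and 309 CPM in aplCoA and at 213, 267 and 207 in pplCoA (log2 0.42 ± 0.13 SE, edgeR adjusted p = 0.473). Slc1a3 in glutamatergic neurons averaged 8.20 ± 3.87 and 14.4 ± 4.26 CPM (SD, n = 3 each), a log2 difference of -0.86 ± 0.34 (edgeR adjusted p = 0.108). It reached 10% of nuclei only in pplCoA (12.2%, against 7.32% in aplCoA), so this is a description. Different clusters also made up the class in each domain. The cluster led by Pld5, with 24.5 to 37.4 CPM of Slc1a3 in the pplCoA replicates, was 2.63 to 21.0% of glutamatergic nuclei in pplCoA and 0.0561 to 0.178% in aplCoA, and the cluster led by Ano2, with 1.99 to 31.5 CPM over the replicates, was 12.9 to 25.2% and 3.55 to 8.06%. The cluster led by Ebf1, with 3.84 to 5.74 CPM in the aplCoA replicates, was 0.0894 to 4.08% in pplCoA and 13.1 to 20.2% in aplCoA. A cluster of 275 nuclei led by Snhg9 was at 499 CPM in aplCoA replicate 3, where its 52 nuclei held 49.1% of the Slc1a3 UMIs of the class, and at 34.0 to 110 CPM in the other 5 replicates. The part of the makeup of the class in this difference was not tested. The other 2 pairs were ABC Gjb6 (log2 0.62) and VLMC Slc1a2 (0.55).

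Lastly, the split within astrocytes was compared between the domains by the interaction in the same edgeR model. Of the 8 genes 2 passed, Slc1a3 and Slc1a2, beside 1.51% of the 5222 genes tested. In aplCoA, Slc1a3 was at 1265, 1527 and 1381 CPM in nuclei with a Gfap or Myoc UMI and at 2244, 2550 and 2724 in those without. In pplCoA it was at 1724, 2050 and 2382 against 2533, 2680 and 2937. The fall was larger in aplCoA by 0.46 on the log2 scale (SE 0.10, edgeR adjusted p = 0.00543). Slc1a2 was at 4893, 5432 and 5019 against 6803, 8164 and 8212 CPM in aplCoA and at 5862, 7757 and 7443 against 8138, 8395 and 8199 in pplCoA, a difference of -0.37 (SE 0.09, edgeR adjusted p = 0.0142).

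Leaving out a pool changed the calls more than the sizes. Without aplCoA replicate 3, pplCoA replicate 2 or pplCoA replicate 3 neither gene passed, at log2 differences of -0.39, -0.44 and -0.41 for Slc1a3 and -0.31, -0.31 and -0.32 for Slc1a2. Without aplCoA replicate 2 only Slc1a3 passed (-0.52), and by edgeR's likelihood ratio test also only Slc1a3, beside 1.7% of all genes. In the 4 fits without a pool in which a call was lost, 0.0957 to 0.46% of all genes were called. Without aplCoA replicate 1 or pplCoA replicate 1 both genes passed, where 2.16% and 3.73% of all genes were called. The nuclei behind the split also differed between domains: nuclei with at least 2 UMIs of Gfap and Myoc were 9.45, 14.3 and 14.6% of astrocytes in aplCoA and 8.60, 6.40 and 4.13% in pplCoA. The part of this in the interaction was not tested. The other 6 genes did not pass: Slc7a10 (-0.54, edgeR adjusted p = 0.250), Gjb6 (-0.52), Etnppl (-0.46), Gja1 (0.24), Aqp4 (0.21) and Aldh1a1 (-0.03).

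The genes whose levels ran most like these over the 54 sums of class and replicate were found by Pearson correlation of log2(CPM + 1) among 15952 genes. The sums share pools and depth, so the values are a description. Nearest to Gfap were Gm28411 (r = 0.903) and Aqp9 (0.899), to Myoc Gm49303 (0.849) and Gm13322 (0.847), and to Aqp4 Six3os1 (0.908) and Frmpd1os (0.902). Gja1 ran with Fgd6 (0.950) and Bmpr1a (0.946), and Gjb6 with Ephb4 (0.952) and Fzd2 (0.949). The nearest to Slc1a2 were Gm13872 (0.977) and Gm6145 (0.957), and to Slc1a3 Tnfaip8 (0.858) and Lypd6 (0.835). Slc7a10 was nearest to Six3os1 (0.913) and 8030451A03Rik (0.903), Etnppl to Gm1698 (0.961) and BC055402 (0.960), and Aldh1a1 to Lama2 (0.951) and Fgd6 (0.933). Six3os1 and Fgd6 each appeared for a pair of the 10 genes.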

How the data were processed

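Single nuclei of the anterior and posterior plCoA were profiled by 10x 3′ sequencing in 7 libraries. The authors aligned reads with Cell Ranger (5.0.0 per the submitters' notes, while the matrix headers name version 4) to mm10, introns included, and deposited unfiltered UMI count matrices. The deposited lists of barcodes and genes (unit: other) were used only to name columns and rows.

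Barcodes with at least 1000 genes (52201) were filtered on UMIs (median + 5 scaled MAD) and on mitochondrial and ribosomal percentages (upper quartile + 5 IQR). Scrublet's top 1% per 1000 nuclei were removed as doublets, leaving 46389. The nuclei were clustered without the 10 genes in scanpy 1.11.5 (Pearson residuals with theta 100, 50 components, 15 neighbours, Leiden resolution 1) and named by marker lists. A cluster was named from at least 3 detected markers. Counts were summed per class and replicate, with both libraries of aplCoA replicate 1 added.

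Genes detected in at least 10% of nuclei were tested with edgeR 4.0.16 (quasi-likelihood, TMM, Benjamini-Hochberg over all genes tested, threshold 0.05) in R 4.3.3, with DESeq2 1.42.0 and edgeR's likelihood ratio test as alternatives. The split model had each replicate as a block because both sides come from the same pool. In simulated counts, all 200 genes changed by 2 on the log2 scale were recovered in both comparisons (100% of those among 5023 genes between domains, with 12 false calls, and among 5222 genes in the split, with 10 false calls). This change is larger than any tested difference of the 10 genes, so recovery at the sizes seen is not shown. In the domain test p-values rest on the spread between pools. In the split and its interaction they rest on how alike the differences within pools were. In each of these tests edgeR also draws on the spread of all genes tested, so the p-values do not rest on a gene's own replicates alone.

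Named genes were the 10 members, list genes that passed, up to 4 others of a list, the 5 largest rises and falls in the split with the same sign in all replicates, and for each member the 2 most correlated genes (at least 5 CPM in a class). The members and lists were chosen with earlier results of these data known. A few genes that the rule names are not reported here.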

Additional observations from a re-analysis of the deposited data

Results flagged for a closer look

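The split of astrocytes by a Gfap or Myoc UMI differed between the domains for both glutamate transporters, by the interaction in edgeR's quasi-likelihood model with all 6 replicates, but the calls did not hold when single pools were left out. The log2 difference, aplCoA minus pplCoA, was -0.4587 for Slc1a3 (adjusted p = 0.00543) and -0.3725 for Slc1a2 (adjusted p = 0.0142). Mean Slc1a3 was 1391 CPM with against 2506 without in aplCoA, and 2052 against 2716 in pplCoA. Mean Slc1a2 was 5115 against 7726 CPM in aplCoA and 7021 against 8244 in pplCoA. Neither gene passed without aplCoA replicate 3, pplCoA replicate 2 or pplCoA replicate 3 (log2 -0.39, -0.44 and -0.41 for Slc1a3, and -0.31, -0.31 and -0.32 for Slc1a2), and Slc1a2 was also lost without aplCoA replicate 2 and by the likelihood ratio test.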

How the results depend on the processing

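For the 7 of 8 genes that differed in the split of astrocytes, the call held under every alternative tried. The share of all genes called in those fits is not given here. Gja1, which did not pass, turned to a log2 difference of -0.0659 with no minimum share of nuclei, -0.0735 without aplCoA replicate 2 (from -0.0735 to 0.0599 leaving out each replicate), -0.0214 with no thinning, -0.0839 with doublets kept and -0.0244 with every barcode of at least 1000 genes. Between domains in astrocytes, edgeR's likelihood ratio test called 1 gene (Myoc), and the fit with no minimum share 3 (Myoc, Gfap and Aldh1a1), beside 3.05% of its 24043 genes. In that fit the standard error of Myoc was 0.12, against 0.34 with the minimum, so its calls are not read as a result about these genes. Leaving out each replicate gave 0 to 1 (Myoc without pplCoA replicate 1), and Myoc is a description, since it reached 10% of nuclei only in aplCoA. Gjb6 turned to 0.0156 without aplCoA replicate 2 (from -0.2424 to 0.0156 leaving out each). In the other classes the count was 1 by the likelihood ratio test, with no minimum share and with doublets kept, and 0 to 1 leaving out each replicate. The gene was Slc1a3 in glutamatergic neurons, which reached 10% of nuclei only in pplCoA, called without aplCoA replicate 3 (log2 -1.24) and without pplCoA replicate 1 (-1.09). The 5 fits that called it called 12.3 to 24.8% of all genes in that class. For the difference of the split between domains, the likelihood ratio test called 1 (Slc1a3), beside 1.7% of all genes, and leaving out each replicate gave 0 to 2. Both genes were called without aplCoA replicate 1 and without pplCoA replicate 1, where 2.16% and 3.73% of all genes were called. With all replicates that share was 1.51%. Aldh1a1 there turned to 0.0098, 0.0154 and 0.0225 without aplCoA replicate 1, aplCoA replicate 3 and pplCoA replicate 2 (from -0.0885 to 0.0225 leaving out each). The causes were not tested.

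The replicate numbers are not stated to pair pools across domains. Deviations of same-numbered pools correlated at 0.388, 0.234 and 0.085, and those of differently numbered pools at -0.363 to 0.284. With the replicate block 0 of the 10 genes passed in astrocytes (Myoc log2 1.37, edgeR adjusted p = 0.0663) and 0 in the other classes. The split without the block gave 7. The share of all genes called in these fits is not given here, so their counts are not read as a result about the genes. Leaving out each replicate from the means of the bins and clusters was added after seeing the data.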
